A study of Rattus norvegicus with 4 samples.

Results

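The exocrine pancreas delivers its enzymes through a tree of ducts, and 9 genes that mark or serve the duct epithelium were examined here in rats fed different amounts of iron: the keratin genes Krt19 and Krt7, the transcription factor gene Sox9, the secreted phosphoprotein gene Spp1, the mucin gene Muc1, and the transport genes Cftr, Slc26a6, Slc4a4 and Aqp1. They were chosen by name as duct markers and duct ion or water transporters. The array held 12 probes for these 9 genes, out of 30367 probes for 26514 gene names. All 9 genes had a probe well above background in both comparisons. In FeO pancreas Krt19 and Spp1 were the lowest of the 9, at 1.97-fold and 1.84-fold below FeA, whereas Cftr was slightly higher, Krt7 was near 0 and no member reached a 2-fold difference in either comparison.

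Weanling male Sprague-Dawley rats were fed an iron-deficient (FeD, 5 ppm iron), iron-adequate (FeA, 35 ppm) or iron-overloaded (FeO, 20275 ppm) diet for 3 weeks and were fasted overnight before whole pancreas was taken. RNA from 6 rats was pooled for each diet. FeD RNA was set against FeA RNA on a pair of arrays with the dyes exchanged, and FeO RNA likewise, making 4 arrays on 1 slide. Each value below is therefore a property of 1 pool of 6 rats. The 2 arrays of a comparison repeat the labelling and not the animals, so no p-value for a diet was computed, and both comparisons use the same FeA pool. The ratios are log2 of the diet pool over the FeA pool, so that a negative value is a lower level in the diet pool. In whole pancreas, fewer cells of a type and less RNA per cell cannot be told apart.

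Duct cells secrete a fluid rich in bicarbonate that carries the digestive enzymes to the gut and neutralises gastric acid there. Secretin raises cyclic AMP in the duct cell, which opens the apical chloride channel CFTR. Chloride that leaves through CFTR returns through the apical exchanger SLC26A6 in return for bicarbonate, bicarbonate enters from the blood side with sodium through SLC4A4, and water follows through aquaporins such as AQP1. Keratins 7 and 19 form the intermediate filaments of the duct cell, SOX9 is the transcription factor that keeps its identity, osteopontin (Spp1) is a secreted phosphoprotein of ducts and of macrophages, and MUC1 is a mucin of the apical membrane.

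None of the 9 genes reached a log2 ratio of 2, the size criterion of the study's methods, in FeD or in FeO. Of all genes tested, 0.102% did so in FeD (16 of 15733) and 0.189% in FeO (31 of 16433). At a log2 ratio of 1, a 2-fold difference, the count was again 0 of 9 in both, against 0.369% of all genes in FeD and 1.14% in FeO. At a log2 ratio of 0.5, a criterion added after the values were seen, 0 of 9 passed in FeD, where 2.83% of all genes did. In FeO, 2 of 9 passed and both were lower, where 2.06% of all genes were lower and 3.5% higher by that much. The median over the 9 genes was 0.02 in FeD, beside 0.01 for all genes, and -0.25 in FeO, beside 0.01 for all genes. With the mean of all probes of a gene in place of the brightest, the FeO median was -0.083. In FeO, 5 of the 9 were below 0 on both arrays, 1 was above 0 on both and 3 differed in sign between the arrays, whereas in FeD the 9 split into 3, 3 and 3. Of all genes, 24.3% were below 0 on both arrays and 27.7% above in FeO, and 21.3% and 25.1% in FeD, the shares beside which the counts of the lists below stand.

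**Figure D1:**
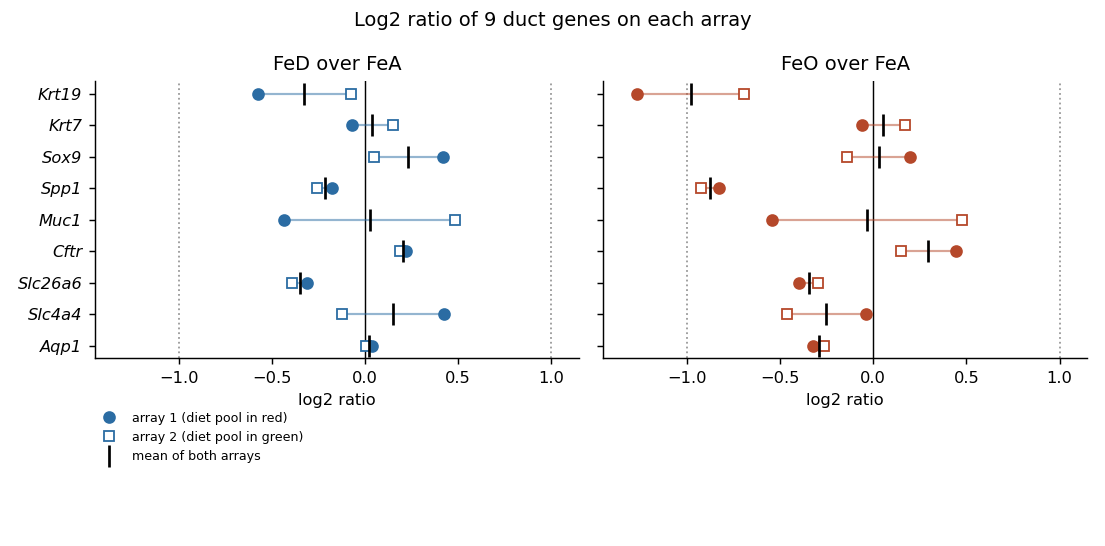
Log2 ratio of the diet pool over the FeA pool for the 9 duct genes, with FeD at left and FeO at right. Circles are the array with the diet pool in red, squares the array with it in green, bars their mean, and dotted lines mark a log2 ratio of 1. Krt19 and Spp1 lie farthest to the left in FeO, and the 2 arrays of Muc1 lie on opposite sides of 0.

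The structural and identity markers are taken first. Krt19, the keratin most used to mark pancreatic ducts, had channel levels (log2, scaled across the arrays) of 9.32, 9.20, 9.44 and 9.27 in the 4 labellings of the FeA pool, 8.74 and 9.12 in the FeD pool, and 8.17 and 8.58 in the FeO pool. Both FeO values were below every FeA value, and so were both FeD values, the higher of these by a narrow margin. How many of all genes separate in this way was not counted, here or for the genes below. Such a separation is therefore described only, and compares labellings of 1 pool per diet. The ratio to FeA on the same array was -1.27 and -0.69 in FeO, a mean of -0.98. Only 0.511% of all genes had a lower mean ratio in FeO. In FeD the arrays gave -0.58 and -0.08, a mean of -0.33, a level below which 2.45% of genes fell. The array with the diet pool in red gave the lower value in both comparisons, and the SD of the 2 arrays was 0.41 in FeO and 0.35 in FeD, so in FeD the mean was no larger than the spread between arrays. With normexp offset 0 the Krt19 ratio in FeO was -1.13 and with the scanner's own processed signals it was -1.22, past a 2-fold difference in both.

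Krt7, the other classic duct keratin, behaved differently from Krt19. Its ratios were -0.07 and 0.15 in FeD and -0.06 and 0.17 in FeO, with means of 0.04 and 0.05. The sign changed with the dye on all 4 arrays, and the mean was smaller than the SD of the arrays in both comparisons (0.16 and 0.17). Krt7 thus showed no difference beyond the arrays' spread in the same pools in which Krt19 was lower.

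Sox9 was read by 2 probes. The brighter probe gave 0.42 and 0.05 in FeD and 0.20 and -0.14 in FeO, with means of 0.23 and 0.03. The FeA pool was well above background for this probe on 1 of the 2 FeO arrays. The dimmer probe gave 0.08 and 0.42 in FeD and 0.17 and 0.30 in FeO, with means of 0.25 and 0.23. Both probes of this duct factor were at or slightly above the FeA level in FeD on both arrays, and in FeO they differed in sign on 1 array.

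The Spp1 probe was printed as 10 spots on each array. Its channel level was 10.28, 10.24, 10.21 and 10.23 in the FeA pool, 10.102 and 9.98 in the FeD pool, and 9.38 and 9.31 in the FeO pool. The 4 FeA values spanned 0.07, and the 3 pools did not overlap, with FeA highest, FeD between and FeO lowest. The FeO ratio was -0.83 and -0.92, a mean of -0.88 or 1.84-fold lower, and 0.645% of all genes lay below it. The FeD ratio was -0.18 and -0.26, a mean of -0.22, and 6.32% of genes lay below it. In FeO all 10 spots were below 0 on both arrays, with an SD over spots of 0.19 and 0.12. In FeD, 9 and 10 of the 10 spots were below 0, with an SD of 0.14 on each array. Unlike Krt19, the lower Spp1 level in FeO was about the same with either dye orientation. With the scanner's processed signals its FeO ratio was -1.001, past a 2-fold difference by a narrow margin.

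**Figure D2:**
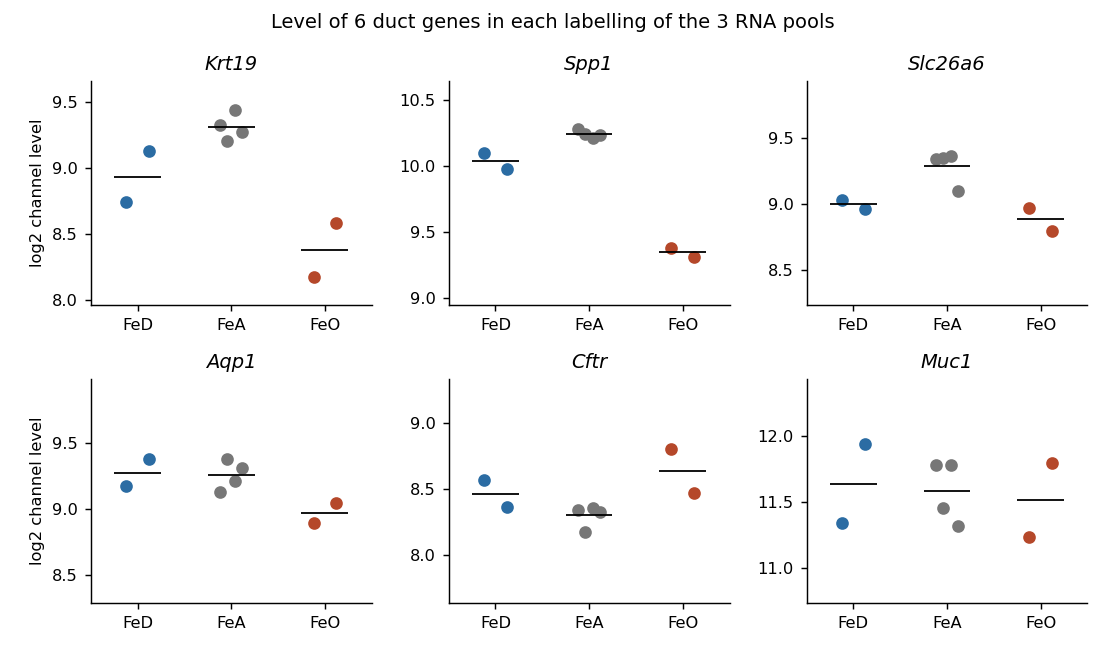
Channel level (log2, after scaling across arrays) of 6 duct genes in each labelling of the FeD, FeA and FeO pools, 2, 4 and 2 labellings of 1 pool each; lines are means and all panels span the same height. Both FeO points lie below all FeA points for Krt19, Spp1, Slc26a6 and Aqp1, and above them for Cftr. The share of all genes whose labellings separate in this way was not counted.

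RefSeq promoter sequences were at hand for 5 of the 9 genes (Spp1, Cftr, Aqp1, Slc4a4 and Muc1). The 250 bases before the start are shown for Spp1, the lowest of these in FeO, and for Cftr, the highest, with capitals on matches to ATTGTT, the core letters bound by SOX factors, on either strand (AACAAT in reverse). The windows are chr14:5619805-5620054 on the minus strand and chr4:47527379-47527628 on the plus strand of GRCr8, each written 5′ to 3′ along its gene.
Spp1: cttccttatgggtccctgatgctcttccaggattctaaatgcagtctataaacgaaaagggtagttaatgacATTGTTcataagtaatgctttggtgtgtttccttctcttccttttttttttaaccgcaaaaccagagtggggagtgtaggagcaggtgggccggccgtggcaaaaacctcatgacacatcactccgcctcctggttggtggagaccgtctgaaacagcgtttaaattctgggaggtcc
Cftr: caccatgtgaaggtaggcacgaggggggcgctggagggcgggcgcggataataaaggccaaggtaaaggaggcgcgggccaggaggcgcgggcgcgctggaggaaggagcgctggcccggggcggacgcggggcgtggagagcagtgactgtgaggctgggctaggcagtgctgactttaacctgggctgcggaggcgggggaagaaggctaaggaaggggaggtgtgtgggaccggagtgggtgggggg
Spp1 held 1 match, and the windows of Cftr, Aqp1, Slc4a4 and Muc1 held none. Among 33469 windows of the same length, 10.3% held ATTGTT or its reverse. A match describes letters only and was not tied to any binding measurement.

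Muc1, the apical mucin, gave ratios of -0.43 and 0.48 in FeD and -0.55 and 0.48 in FeO. The pool labelled red was the lower one on all 4 arrays, whichever diet it came from, and the means were 0.02 and -0.03. Among 15230 genes measured by the same probe in both comparisons, 30.1% had a sign that followed the dye on all 4 arrays, and of the 9 genes Muc1 and Krt7 did. The SD of the 2 Muc1 arrays was 0.65 in FeD and 0.72 in FeO, the widest of the 9 genes. The offset ran the same way in both comparisons and cancelled in the mean of a dye-swapped pair.

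**Figure D3:**
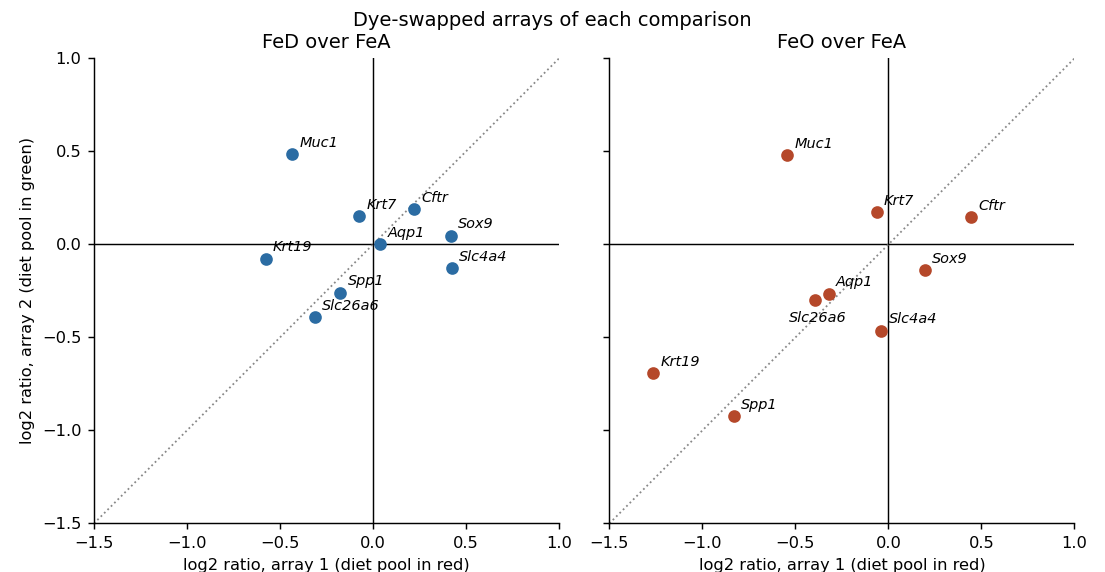
Log2 ratio on the array with the diet pool in red (horizontal) against the array with it in green (vertical) for the 9 duct genes, FeD at left and FeO at right; the dotted line is equality. Points at upper left and lower right had arrays of opposite sign: Muc1 and Krt7 in both comparisons, Slc4a4 in FeD and Sox9 in FeO. Of these, only Muc1 and Krt7 had a sign that followed the dye on all 4 arrays.

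The apical transporters came next. Cftr, the cyclic AMP-gated chloride channel, had channel levels of 8.34, 8.17, 8.36 and 8.32 in the FeA pool, 8.56 and 8.36 in the FeD pool, and 8.80 and 8.47 in the FeO pool. Both FeO values were above every FeA value, while the lower FeD value was level with the highest FeA value. The ratio was 0.22 and 0.19 in FeD, a mean of 0.21 with 12.04% of genes above it, and 0.44 and 0.15 in FeO, a mean of 0.29 with 9.71% of genes above it. By the brightest probe of each gene, Cftr was the only one of the 9 above 0 on all 4 arrays, where 11.4% of genes in general were. A second Cftr probe was not well above background on both arrays of any pool, and its mean ratios were -0.01 in FeD and 0.00 in FeO, so it added no reading of the gene.

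Slc26a6, the chloride and bicarbonate exchanger that works beside CFTR, was below 0 on all 4 arrays, as were Krt19 and Spp1 among the 9 and 10.5% of genes in general. Its channel level was 9.35, 9.35, 9.37 and 9.10 in the FeA pool, 9.03 and 8.96 in the FeD pool, and 8.97 and 8.80 in the FeO pool. Both diet pools lay below every FeA value. The ratios were -0.31 and -0.39 in FeD and -0.40 and -0.30 in FeO, with a mean of -0.35 in each, or 1.28-fold and 1.27-fold lower. The SD of the 2 arrays was 0.06 and 0.07. In FeD it was the lowest of the 9 genes, and 2.07% of all genes lay below it. In FeO, where more genes differed, 4.65% did. Both ratios share the FeA pool.

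Slc4a4, the basolateral carrier that brings sodium and bicarbonate into the duct cell, was read by 2 probes. The brighter gave 0.42 and -0.13 in FeD, a mean of 0.15 with an SD of 0.39, and -0.04 and -0.46 in FeO, a mean of -0.25 with an SD of 0.30. The dimmer gave means of -0.01 and 0.09. By the brighter probe the channel level was 9.88, 9.82, 9.57 and 9.92 in the FeA pool, 10.3 and 9.69 in the FeD pool, and 9.53 and 9.46 in the FeO pool. Both FeO values lay below every FeA value, by a narrow margin, while the higher FeD value lay above every FeA value and the lower lay among them. The probes differed in sign in both comparisons, so the direction for Slc4a4 depended on the probe.

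Aqp1, a water channel of ducts and of capillary endothelium, was also printed as 10 spots. Its channel level was 9.13, 9.38, 9.21 and 9.31 in the FeA pool, 9.17 and 9.38 in the FeD pool, and 8.89 and 9.05 in the FeO pool. The FeD values lay at FeA levels, the higher level with the highest FeA value, and both FeO values lay below every FeA value. The FeD ratios were 0.04 and 0.00, with 5 of 10 spots below 0 on each array. The FeO ratios were -0.32 and -0.26, a mean of -0.29 or 1.23-fold lower, and 6.57% of genes lay below it. All 9 usable spots of one FeO array and all 10 of the other were below 0, with an SD over spots of 0.09 and 0.15.

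**Figure D4:**
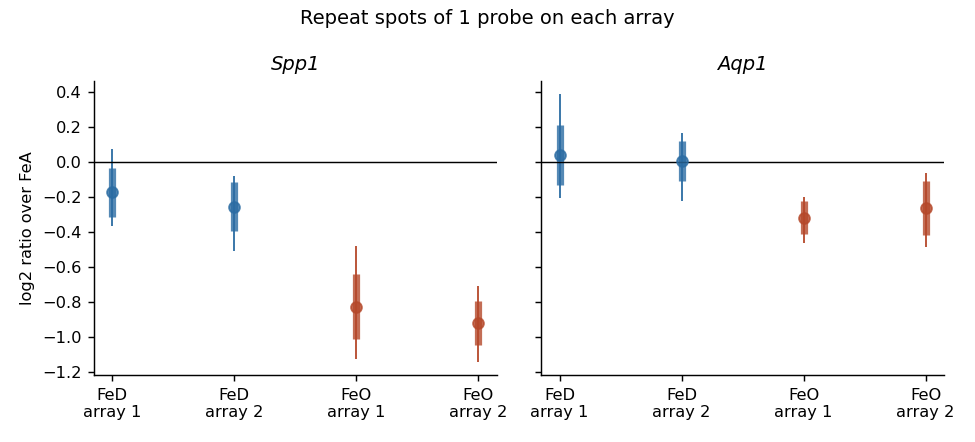
Repeat spots of the Spp1 and Aqp1 probes on each array: points are means of the log2 ratio over FeA, thick bars the SD over spots, and thin lines the lowest to highest of 10 spots (9 for Aqp1 on FeO array 1). The spots of both genes lie wholly below 0 on both FeO arrays, and those of Aqp1 straddle 0 on both FeD arrays.

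The other genes of duct epithelium were mostly close to FeA. Of 16 listed epithelial and duct identity genes, 14 were on the array and 11 were well above background. None reached a log2 ratio of 1 in either diet. In FeD, 3 of the 11 were lower on both arrays and 1 higher, with a median of -0.13. In FeO, 6 were lower and 2 higher, with a median of -0.24. Krt18, a keratin of simple epithelia that acinar cells also make, was the lowest in FeO at -0.79 and -0.77, with -0.37 and -0.44 in FeD. Cldn7, a tight junction claudin, had means of -0.41 in FeD and -0.26 in FeO, and the cell adhesion gene Epcam had -0.28 and -0.24. Prom1, an apical membrane protein, had a mean of -0.52 in FeO (-0.16 and -0.89), and the tetraspanin gene Tspan8 had -0.42 (-0.16 and -0.68). A dimmer Prom1 probe had a mean of -0.11 in FeO with arrays of opposite sign. Krt18 and Cldn7 were below 0 on all 4 arrays, whereas Prom1 and Tspan8 were below 0 on both arrays in FeO and of mixed sign in FeD.

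Of 19 listed genes of fluid and bicarbonate secretion, all were on the array and 15 were well above background in each comparison, and Car12, Slc26a3 and Clcn2 were not in either. None reached a log2 ratio of 1. In FeD, 3 were lower on both arrays, 2 higher and 10 of mixed sign, with a median of -0.01. In FeO the counts were 6, 2 and 7, with a median of -0.07. The water channel gene Aqp8, expressed in acinar cells of the rat, was the highest, at 0.05 and 0.87 in FeD and 0.16 and 1.03 in FeO, so most of its mean came from the array with the diet pool in green. Aqp5, another water channel of secretory epithelia, was -0.13 and -0.23 in FeD and -0.52 and -0.45 in FeO, the same direction as Aqp1 in FeO. The scaffold gene Slc9a3r1, which binds CFTR at the apical membrane, had a mean of 0.37 in FeO with arrays of opposite sign (-0.09 and 0.82), and the potassium channel gene Kcnma1 a mean of 0.26 in FeD with arrays of 0.55 and -0.04.

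Of 12 listed genes that regulate duct secretion, 11 were well above background in FeD and 12 in FeO, and none reached a log2 ratio of 1. In FeD, 8 were lower on both arrays and 2 higher, with a median of -0.12, and in FeO 5 were lower and 3 higher, with a median of -0.04. Of these 3, Wnk1 entered in FeO only through the FeO pool, and in FeD it entered only through the FeA pool. Without Wnk1, 7 of 10 were lower and 2 higher in FeD, and 5 of 11 were lower and 2 higher in FeO. Vipr1, a receptor for vasoactive intestinal peptide, was the lowest in FeO at -0.73 and -0.30, with -0.41 and -0.02 in FeD. P2ry2, a nucleotide receptor of the apical membrane, had a mean of 0.29 in FeO. Ezr, which encodes the membrane linker ezrin, was 0.29 and 0.21 in FeD and -0.11 and -0.04 in FeO. Ahcyl1, which activates CFTR and SLC4A4, had means of -0.11 and -0.14 (-0.06 and -0.29 by a dimmer probe with arrays of opposite sign), and Prkaca, the catalytic subunit of protein kinase A, -0.16 and -0.01. Sctr, the secretin receptor itself, gave -0.65 and 0.41 in FeD and -0.60 and 0.61 in FeO, again with the red pool lower on all 4 arrays.

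**Figure D5:**
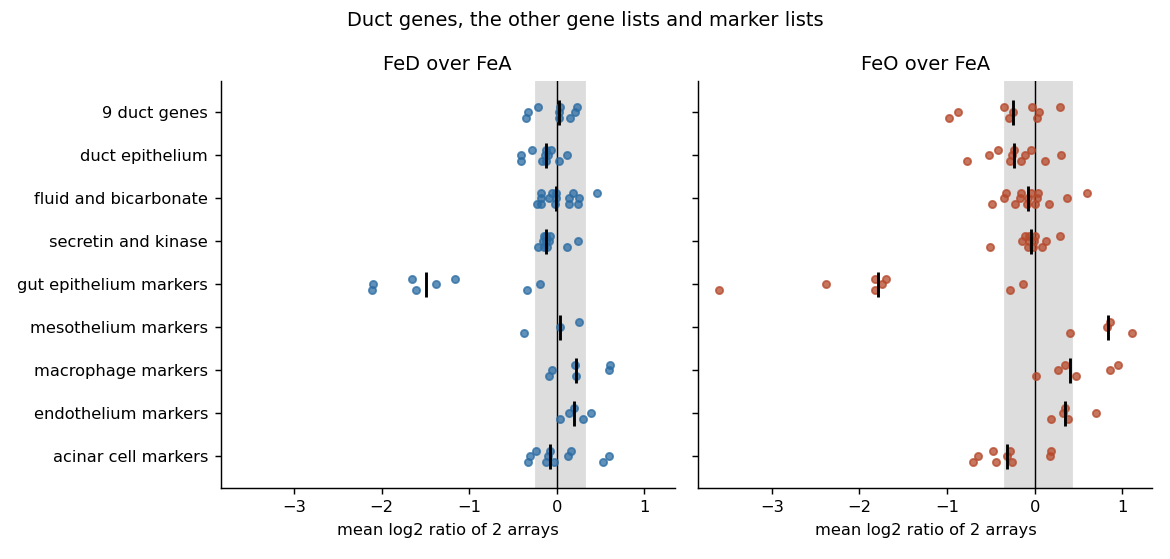
Mean log2 ratio over FeA of each gene (points) and the median (black bar) for the 9 duct genes, the other gene lists and markers of other cell types, FeD at left and FeO at right; the grey band holds the middle 90% of all genes. The duct lists lie mostly within the band, while most gut epithelium markers lie to its left in both diets and mesothelium markers mostly to its right in FeO. Agr2 and Cdh17 (gut) and Wt1 and Lrrn4 (mesothelium) were not above background on every array of both pools.

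Several of the 9 genes are also made by other cells of the tissue, and markers of those cells differed between these pools. Gut epithelium makes Krt19, Krt18, Epcam, Cldn7, Prom1 and Tspan8 as well. Apart from Krt19, these are the duct epithelium genes named above for their distance from 0, and all had negative means in FeO. The other genes of the lists were not sorted by whether gut epithelium makes them. The genes named here therefore do not show how gut-made genes ran as a set. Of 8 gut epithelium markers, 6 were well above background in both pools on all arrays. Of these 6, 4 were lower by a log2 ratio of 1 or more in FeD and 4 in FeO, where 0.242% of all genes in FeD and 0.481% in FeO were as low. Their medians were -1.27 and -1.79, and Lgals4, a lectin of gut epithelium, was at -2.11 and -3.60. The other 2 of the 8 entered through the FeA pool alone, since Agr2 was at background in both diet pools and Cdh17 in FeO and on 1 array in FeD. They are left out of these counts and medians. The summed channel level of all 8, these 2 included, was 4912 to 5194 in the FeA pool, 2001 to 2051 in FeD and 1466 to 1616 in FeO. Since these 2 passed only through the FeA pool, the sum leans towards FeA. Beside these, the Krt19 mean was -0.33 in FeD and -0.98 in FeO. Their part in the Krt19 and Krt18 values was not tested.

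Mesothelium, the covering of the organ, also makes Krt19 and Krt7. Of its 4 markers on the array, Msln and Upk1b were measured in FeA and in each diet pool. Both were higher in FeO, at 0.83 and 0.86, the opposite direction to Krt19. Wt1 and Lrrn4 entered in FeO only through the FeO pool. The summed level of all 4 was 2942 to 3593 in FeO against 1686 to 1985 in FeA, a sum that leans towards FeO through Wt1 and Lrrn4. In FeD, Msln was at 0.25 and Upk1b at -0.38, and the summed level was 1834 to 2135. Macrophages make Spp1. Of 6 macrophage markers above background, 5 were higher on both arrays in FeO and none lower, with a median of 0.41 and a summed level of 6889 to 7760 against 4647 to 5709 in FeA, the opposite direction to Spp1. In FeD, 4 were higher and 1 lower, with a median of 0.22 and a summed level of 6714 to 7546. Mrc1 was at background in both comparisons. All 5 endothelium markers above background were higher on both arrays in FeO, with a median of 0.35 and a summed level of 2894 to 2944 against 2009 to 2707 in FeA, the opposite direction to Aqp1. In FeD, 4 of the 5 were higher, with a median of 0.20 and a summed level of 2970 to 3501, and Tek was at background in both. The part of these cells in the duct genes' values was not tested.

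The tissue label was checked against acinar genes, and all 11 acinar markers were well above background. In FeO, 9 had a ratio on both arrays (Cpa1 and Prss1 each had a spot flagged as an outlier on 1 array), 6 of them lower on both arrays and 1 higher, with a median of -0.32. In FeD, 2 were lower and 2 higher, with a median of -0.08. The summed level of the 9 was 2007830 to 2045450 in FeO, 2347060 to 2474370 in FeD and 2083090 to 2622560 in FeA, and several of these probes were saturated. The part of acinar RNA in the duct genes' values was not tested. Other cells of the tissue also differed. In FeO, 4 adipocyte markers measured in both pools had a median of 1.23. That value lies in a gap between Adipoq (2.07) and Cfd (2.30) above it and Lipe (0.40) and Lep (0.10) below it. The summed level of the 5 on the array, with Plin1 that entered only through the FeO pool, was 30481 to 31306 against 6629 to 9230 in FeA. Islet markers had a FeO median of -0.77, with 6 of 7 lower on both arrays. The remaining islet marker, Gcg, went the other way and was higher on both FeO arrays, with a mean of 1.14. Lymphocyte markers had a median of 0.60 in FeD, and -0.83 in FeO over the 4 measured in both pools. The part of these cells was not tested either.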

How the data were processed

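Pooled pancreas RNA of 6 rats per diet was compared on 4 dye-swapped 2-colour Agilent Rat GE 4x44K v3 arrays. The authors deposited spot intensity values from Agilent Feature Extraction 10.1.1.1, and those intensities were used. Their tables of log2 fold changes, p-values, q-values and a keep or discard tag were read for probe names only. Median spot and background intensities were corrected with normexp (offset 50) and loess-normalised within arrays in limma 3.58.1 (R 4.3.3), after outlier-flagged spots (722 to 938 of 42877 per array) were left out. Ratios were turned to diet over FeA by the labelled dyes, and spots of a probe were averaged. Channel levels are after Aquantile scaling. A probe entered a comparison if well above background (over 50% of its spots) on both arrays in at least 1 pool, and the brightest such probe stood for its gene. The number of arrays limits the precision. Between 61.9% and 71.5% of spots were well above background per channel.

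Named genes were the 9 members and, from each other list, genes past a log2 ratio of 1 plus the 3 farthest from 0 in each comparison. Sctr, Wnk1, marker genes and genes at background were named after their values were seen. Some items of the lists are not reported here. The members and lists were chosen with earlier results of these data known. The procedure was tested on simulated data. Promoters came from RefSeq (GRCr8), for 5 of 9 members.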

Additional observations from a re-analysis of the deposited data

Results flagged for a closer look

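Aqp1 was at or above 0 on both FeD arrays (0.04 and 0.00) and below 0 on both FeO arrays (-0.32 and -0.26), so its mean ratio was 0.31 higher in FeD than in FeO. In FeD it was level with FeA, with 5 of 10 spots below 0 on each array. Its FeD mean was -0.027 with median centring. Ezr, the gene of ezrin, was above 0 on both FeD arrays and below 0 on both FeO arrays, a distance of 0.32. In each of these 2 genes every array of one diet lay on the other side of 0 from every array of the other. This did not set them apart, since marker genes such as Cela1, Upk1b and Cd79b did so too. Cd79b was at 0.67 and 1.25 in FeD and at -1.37 and -0.57 in FeO. The differences between diets were not tested, because each diet is 1 pool, and both ratios use the same FeA pool.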

How the results depend on the processing

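The count of duct genes past a log2 ratio of 2 was 0 in both comparisons under all alternatives run. Past a log2 ratio of 1 in FeO it went from 0 to 1 (Krt19) with normexp offset 0 and to 2 (Krt19 and Spp1) with the scanner's processed signals. With offset 0 the count of all genes past 2 and past 1 was 27 and 149 in FeD and 64 and 378 in FeO, and with processed signals 61 and 280 in FeD and 132 and 630 in FeO. The FeO median of the 9 genes was -0.32 with processed signals, -0.21 with median centring and -0.083 with the mean of a gene's probes. On single arrays, the FeO count past 1 was 0 to 1, the FeO median -0.32 to -0.26, the FeD median -0.073 to 0.0026, the FeD count past 0.5 was 0 to 1, the count of all genes past 1 was 73 to 112 in FeD and 189 to 342 in FeO, and the count of the fluid and bicarbonate list past 1 in FeO was 0 to 1 (Aqp8 with array 2 alone). Of 144 single-gene ratios recomputed under 8 settings (single arrays and Aquantile aside), 12 moved beyond the SD of the arrays and 5 turned sign. Not all of the 144 could move. Dropping the background filter changed no ratio, and requiring both pools to be well above background changed only Sox9 in FeO. The mean of a gene's probes changed only Sox9 and Slc4a4. Ratios of Spp1 and Slc26a6 were among those that moved, and none of Krt19 was. The measure depends on each gene's own SD, which in FeO was 0.41 for Krt19 and 0.07 for Spp1 and for Slc26a6. With processed signals the FeO ratio went from -0.98 to -1.22 for Krt19. It went from -0.88 to -1.001 for Spp1 and from -0.35 to -0.48 for Slc26a6, so Krt19 was not steadier. None of those that turned sign was of Krt19, Spp1 or Slc26a6. Leaving out Muc1 could not move a count past 1, because Muc1 was in none. The medians without it were 0.03 in FeD and -0.27 in FeO. The cause of these shifts was not tested.

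Tests over the 2 arrays of 1 pool measure labelling error only. Of 11 probes of these genes tested in each comparison, the methods' t-test put 1 (Slc26a6) below an unadjusted 0.05 in FeD and 2 (Krt19 and Spp1) in FeO, as did limma, where the t-test put 6.24% and 7.88% of all probes there, and none of the 11 after Benjamini-Hochberg adjustment with either. The limma test took the ratio within each array. No analysis over animals was possible, because each group is 1 RNA pool and the 2 arrays of a comparison are a dye swap.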
